A study of Mus musculus with 23 samples.

Results

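The genes described here encode voltage-gated sodium channels and hyperpolarization-activated cyclic nucleotide-gated (HCN) channels, which set how readily a neuron fires. They are the pore-forming sodium channel subunits Scn1a, Scn2a, Scn3a and Scn8a, the beta subunits Scn2b and Scn3b, and the HCN channels Hcn2 and Hcn4. A gene was measured through every probe set, a group of short array probes with 1 summarised value, that the array annotation assigns to that gene alone. For 7 of the 8 genes this gave 20 probe sets, 10 on the MOE430A array and 10 on the MOE430B array, of 18192 genes that the arrays measured in this way. Hcn4 is not analysed here, because no probe set names it alone in the annotation used. The 20 probe sets are 3 of Scn1a, 4 of Scn2a, 2 of Scn3a, 5 of Scn8a, 3 of Scn2b, 2 of Scn3b and 1 of Hcn2.

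Pore-forming sodium channel subunits open when the membrane depolarizes and carry the current that starts the action potential. Beta subunits span the membrane once, alter the gating of the pore and its delivery to the cell surface, and act as adhesion molecules. HCN channels open when the membrane hyperpolarizes and pass a mixed sodium and potassium current that cyclic AMP promotes. In hippocampal pyramidal cells these channels cluster by compartment, the sodium channels at the axon initial segment and HCN channels mostly in dendrites.

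The study compared the CA3 field of the hippocampus between UBB+1 tg mice and wild-type mice, all 18 months old. UBB+1 tg mice were heterozygous animals of a single line on a C57BL/6J background, in which the CamKIIα promoter drives UBB+1, a frameshifted ubiquitin that inhibits the proteasome, in neurons, most strongly in the forebrain. Wild-type mice were their non-transgenic littermates. CA3 was cut by laser from 35 µm sections stained with cresyl violet, and 5 ng of RNA from each mouse was amplified in 2 rounds and hybridised to Affymetrix arrays. MOE430A holds 6 UBB+1 tg and 5 wild-type mice and MOE430B 6 and 6, with 11 mice on both. Each array is 1 mouse, no animals were pooled, and mice are named by genotype and number (tg270, wt287). Values are log2 intensities, and a difference is UBB+1 tg minus wild type unless stated otherwise.

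Any pair of mice on MOE430A correlated at a Pearson r of 0.945 to 0.991 over its probe sets, and any pair on MOE430B at 0.936 to 0.987. The median intensity of an array was 6.32 to 6.34 and 5.49 to 5.50, respectively. The probe set 1427508_at, which detects a transcribed part of the transgene construct, was at 9.03 ± 0.32 (SD, n = 6) in UBB+1 tg and 6.66 ± 0.16 (n = 5) in wild-type mice without overlap, with an exact two-sided permutation p of 0.00216. Clustering over all probe sets divided the mice into 3 array sets that followed the 3'-5' difference, the brightness of the 3' over the 5' controls for β-actin and Gapdh, a measure of how short the amplified RNA was. On MOE430A that difference was 2.65 to 3.43 in the low set (tg271, wt287, wt290), 4.44 to 4.62 in the middle set (tg273, tg274, tg276, tg277, wt291, wt321) and 6.05 to 6.10 in the high set (tg270, wt289). MOE430B gave the same sets, at 2.41 to 3.73, 4.47 to 4.97 and 6.22 to 6.39, with wt331 added to the middle one. The genotypes did not differ in it beyond the spread between mice (exact two-sided permutation p = 0.435 and 0.407), but they are spread unevenly over the sets. Of the marker genes of the labelled tissue, 6 of 6 neuronal and 6 of 6 CA3 pyramidal cell genes lay above the array median, as did 3 of 3 for CA2 pyramidal cells, 1 of 3 for CA1 pyramidal cells and 1 of 5 for dentate granule cells. Markers of other cells were present too, with 6 of 7 interneuron, 4 of 5 astrocyte, 4 of 6 oligodendrocyte and 4 of 5 microglia genes above the median. None of the 125 probe sets of the 53 marker genes passed the false discovery rate of 10%. An unadjusted p under 0.05 was reached by 1, of the CA1 marker Pou3f1 (-0.32). The share over all probe sets was 3.48% on MOE430A and 3.05% on MOE430B. With the array set as block, 0 passed the false discovery rate and 9 had an unadjusted p under 0.05. That p was reached by 7.19% of all probe sets on MOE430A and 5.06% on MOE430B. Of the 9, 6 were higher in UBB+1 tg mice. They were the CA2 markers Rgs14 (0.52) and Pcp4 (0.82) and the CA3 marker Cpne4 (0.42). Also higher were the neuronal Snap25 (0.41) and Syt1 (0.20) and the interneuron marker Gad1 (0.26). The other 3, Pou3f1 (-0.36) and the microglial C1qa (-0.37) and Csf1r (-0.33), were lower. Blocked values of opposite sign were found for the same genes or cell types. Examples are Snap25 1447763_at (-0.22), Cpne4 1453888_at (-0.12), Amigo2 1447769_x_at of CA2 (-0.11), the interneuron marker Sst (-0.46) and the microglial Cx3cr1 1450020_at (0.06). The part of cell makeup in the channel values was not tested. In such tissue, fewer cells of a type and less RNA per cell cannot be told apart.

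None of the 7 channel genes passed the test for a difference between the genotypes. Of the 20 probe sets, 0 passed the false discovery rate of 10% by limma, as was the case for 0% of the 22625 probe sets tested on MOE430A and 0% of the 22511 on MOE430B. An unadjusted p under 0.05 was reached by 0 of 20, where 3.48% of all probe sets on MOE430A and 3.05% on MOE430B reached it. In 0 of 20 did the genotypes not overlap, against 0.234% and 0.142% of all probe sets. The differences ran from -0.45 (Scn2b) to 0.54 (Scn2a), 11 above and 9 below 0, with a median of 0.06 beside 0.00 over all of MOE430A and -0.01 over all of MOE430B. Adjusted p-values by limma were 0.984 to 0.986 on MOE430A and 1.00 on MOE430B. With the array set as block, 0 of 20 had an unadjusted p under 0.05, the lowest being 0.0639 for 1430648_at of Scn2b, where 7.19% and 5.06% of all probe sets reached it.

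**Figure D1:**
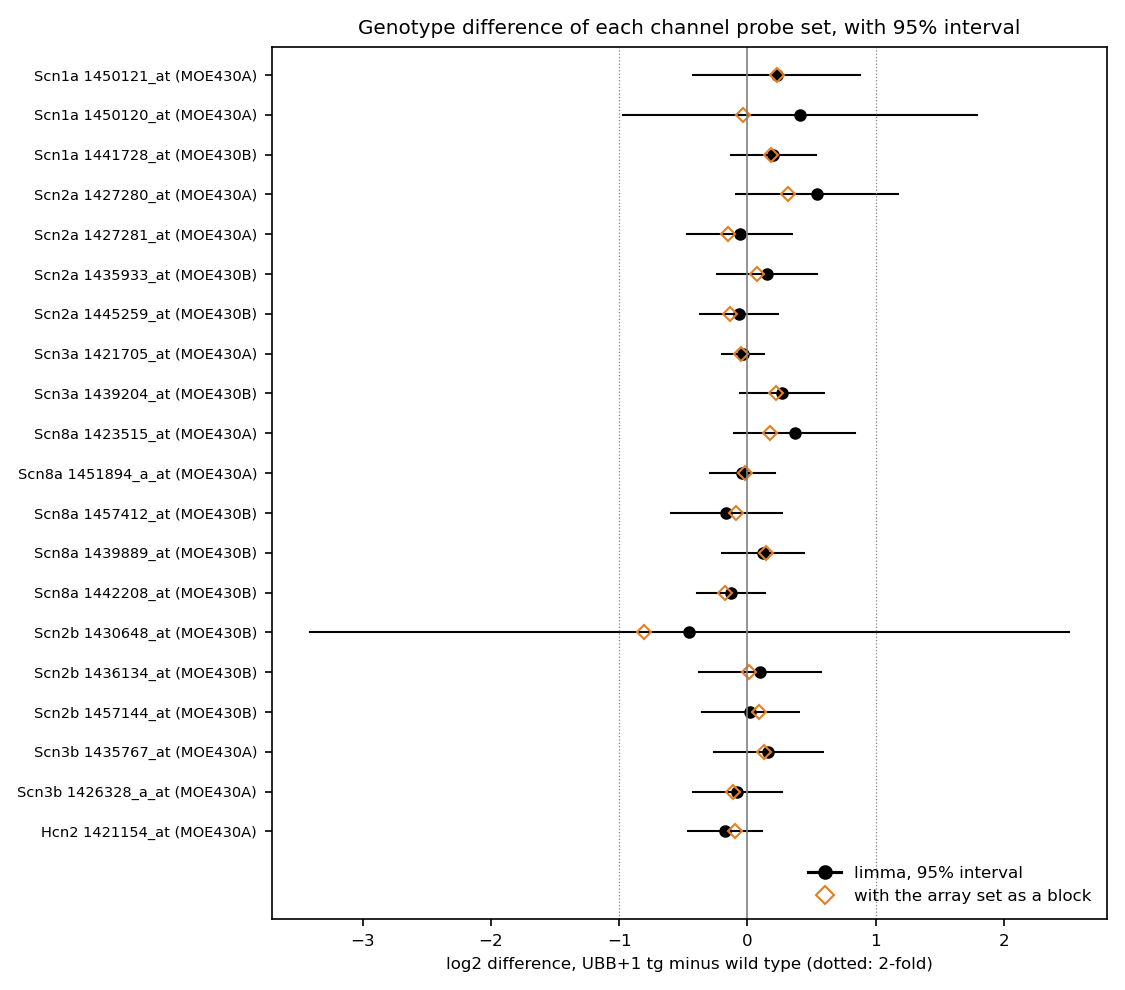
Log2 difference between UBB+1 tg and wild-type mice for each of the 20 probe sets (x axis, log2 units; dotted lines mark 2-fold). Filled points are the limma estimates with 95% confidence intervals and open diamonds the estimates with the array set as block; every interval holds 0, and the intervals of 17 probe sets lie within 2-fold.

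The precision of these differences varied widely among the genes. For 17 of the 20 probe sets the 95% confidence interval lay between a 2-fold fall and a 2-fold rise, so that a larger change of the signal was outside the interval, as the plot of differences with their intervals shows. The other 3 were 1450120_at of Scn1a (-0.97 to 1.79), 1427280_at of Scn2a (-0.09 to 1.18) and 1430648_at of Scn2b (-3.41 to 2.51). The number of arrays limits this precision, and a missed threshold does not show that the genotypes were alike. The 7 probe sets below the median of their array were all among the 17, such as 1421705_at of Scn3a (-0.20 to 0.13). For these the interval bounds a dim signal, and how well that signal followed the transcript was not tested.

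Scn1a, best known as the main sodium channel of fast-spiking inhibitory interneurons, had 3 probe sets and differences of 0.20 to 0.41. Its brightest, 1450121_at on MOE430A, ran from 7.16 (tg274) to 8.80 (tg270) in UBB+1 tg mice with a median of 7.72. The wild-type mice were at 7.16 (wt287), 8.37 (wt289), 7.08 (wt290), 7.77 (wt291) and 7.38 (wt321). The 2 highest mice, tg270 and wt289, are one of each genotype and form the high array set, and the groups overlapped over most of their range. Means were 7.78 ± 0.55 (SD, n = 6) and 7.55 ± 0.53 (n = 5), a difference of 0.23 (SE 0.30, exact two-sided permutation p = 0.513). Leaving out 1 mouse gave values from 0.023 without tg270 to 0.43 without wt289, and adjustment for the 3'-5' difference gave 0.039.

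Within the array sets the same probe set differed by 0.62 in the low and 0.43 in the high set, with 1 UBB+1 tg mouse in each, and by -0.04 in the middle set. The other Scn1a probe set on MOE430A, 1450120_at, spread more widely, from 6.23 (wt289) to 9.05 (tg276). Here the high set was lowest, at 6.23 and 6.43, and 3 UBB+1 tg mice (tg274, tg276, tg277) and both middle-set wild-type mice were at 8.53 to 9.05, while tg273, of the same set, was at 6.82. Its difference of 0.41 (SE 0.63) became -0.03 with the array set as block. On MOE430B, 1441728_at was dim, below the array median, at 5.10 ± 0.34 and 4.90 ± 0.22 (n = 6 each), a difference of 0.20 (SE 0.15).

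Scn2a encodes the sodium channel of excitatory neurons that is placed early along the axon, in part at its initial segment. Its brightest probe set, 1435933_at on MOE430B, was brighter than 99.4% of the probe sets of that array. UBB+1 tg mice ran from 10.09 (tg271) to 11.18 (tg276) with a median of 11.03, and wild-type mice from 10.39 (wt290) to 11.02 (wt289) with a median of 10.70. Only tg271 lay below every wild-type mouse, and 5 of 6 UBB+1 tg mice lay above the wild-type mean. Means of 10.87 ± 0.41 and 10.72 ± 0.25 (n = 6 each) gave a difference of 0.15 (SE 0.18, exact two-sided permutation p = 0.455). Without tg271, the difference was 0.31 and its unadjusted limma p fell under 0.05. It was 0.07 (SE 0.13) with the array set as block, 0.040 when adjusted for the 3'-5' difference and -0.45 in the low set.

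On MOE430A, 1427280_at of Scn2a had the largest positive difference of the 20 and their lowest p. UBB+1 tg mice were at 8.95 (tg271), 9.13 (tg270), 9.46 (tg274), 10.23 (tg273), 10.28 (tg276) and 10.42 (tg277). Wild-type mice were at 8.90 (wt287), 8.93 (wt290), 9.12 (wt289), 9.45 (wt291) and 9.61 (wt321). The UBB+1 tg mice tg273, tg276 and tg277 stood above all wild-type mice, and the others lay inside the wild-type range.

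The means of that probe set were 9.75 ± 0.64 (n = 6) and 9.20 ± 0.32 (n = 5), a difference of 0.54 (SE 0.29). The unadjusted limma p was 0.0860, the adjusted p 0.984 and the exact two-sided permutation p 0.113. The difference lay in the middle array set, at 0.57 (4 against 2 mice, limma adjusted p = 0.923), and was 0.04 in the low and 0.01 in the high set. The middle set holds 4 of 6 UBB+1 tg but 2 of 5 wild-type mice, and its mean was 9.91 against 8.93 and 9.12 in the others. That mean includes tg273, tg276 and tg277, while the wild-type mice of the set were at 9.45 (wt291) and 9.61 (wt321). The part of the array sets in the genotype difference was not tested. With the sets as a block the difference was 0.31 (SE 0.18). Leaving out tg270 or tg271, which belong to the other sets, brought the unadjusted limma p under 0.05, with a difference of 0.70 without tg271. With limma's array weights, this probe set (0.80) and 1423515_at of Scn8a (0.53) reached an unadjusted p under 0.05, as did 10.4% of all probe sets on MOE430A.

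The remaining Scn2a probe sets were dimmer, and their genotype differences lay slightly below 0. On MOE430A, 1427281_at, below the array median, differed by -0.06 (SE 0.19), and on MOE430B, 1445259_at differed by -0.06 (SE 0.14). In the middle array set 1445259_at was lower in UBB+1 tg mice by 0.30 with 4 against 3 mice (difference -0.30, limma adjusted p = 0.846). In that set an unadjusted p under 0.05 was reached by 5.42% of all probe sets on MOE430B and by 2 of the 10 channel probe sets there, this one and 1430648_at of Scn2b.

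Scn3a is a sodium channel abundant in the embryonic brain and low in the adult, and both of its probe sets lay below the median of their arrays. On MOE430B, 1439204_at ran from 4.88 (tg276) to 5.59 (tg277) with a median of 5.30 in UBB+1 tg mice and from 4.61 (wt287) to 5.27 (wt321) with a median of 5.08 in wild-type mice. The UBB+1 tg mice tg273, tg274 and tg277 were above all wild-type mice. The means of 5.25 ± 0.28 and 4.99 ± 0.29 (n = 6 each) differed by 0.27 (SE 0.15, exact two-sided permutation p = 0.141). Without tg276 the difference was 0.34 and its unadjusted limma p fell under 0.05. The other probe set, 1421705_at on MOE430A, stayed between 4.46 and 4.75 in all 11 mice, and its difference was -0.03 (SE 0.07, n = 6 and 5). MOE430A values were deposited as whole numbers on the linear scale, which leaves ties among dim values such as these.

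Scn8a, the channel that dominates the mature axon initial segment and the nodes of Ranvier, had 5 probe sets, of which 2 were higher and 3 lower in UBB+1 tg mice. The brightest, 1423515_at on MOE430A, ran from 9.31 (tg271) to 10.02 (tg273) with a median of 9.70 in UBB+1 tg mice. Wild-type mice were at 8.74 (wt287), 9.57 (wt289), 8.89 (wt290), 9.78 (wt291) and 9.72 (wt321). The lowest mice, wt287 and wt290, were the wild-type mice of the low array set, and tg271 of that set was the lowest UBB+1 tg mouse. The means of 9.71 ± 0.28 (n = 6) and 9.34 ± 0.49 (n = 5) differed by 0.37 (SE 0.21, exact two-sided permutation p = 0.154).

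With the array sets as a block the difference of 1423515_at was 0.18 (SE 0.11), and it was 0.49 in the low, 0.10 in the middle and -0.04 in the high set. On MOE430B, 1457412_at of Scn8a moved the other way, with wt287 (9.95) and wt290 (9.58) as the highest mice and the UBB+1 tg mice between 8.84 and 9.40. Its difference was -0.17 (SE 0.20), with -0.85 in the low, 0.09 in the middle and 0.32 in the high set. The remaining Scn8a probe sets, 1451894_a_at, 1439889_at and 1442208_at, differed by -0.04 (SE 0.11), 0.12 (SE 0.15) and -0.13 (SE 0.12).

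Of the beta subunits, Scn2b forms a disulfide bond with the pore. Its brightest probe set, 1430648_at on MOE430B, had the widest range over the mice of all 22511 probe sets tested there, 7.41 on the log2 scale beside a median of 0.62. UBB+1 tg mice were at 6.48 (tg270), 8.62 (tg271), 11.92 (tg273), 12.21 (tg277), 12.29 (tg276) and 12.66 (tg274). Wild-type mice were at 5.57 (wt289), 11.35 (wt290), 11.68 (wt287), 12.48 (wt291), 12.83 (wt331) and 12.98 (wt321). The 2 mice of the high array set, 1 of each genotype, were far below all others, and 9 of the 12 mice lay at or above 11.35.

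The means of 10.69 ± 2.54 and 11.15 ± 2.81 (n = 6 each) gave a difference of -0.45 (SE 1.37, exact two-sided permutation p = 0.827). With the array set as block it was -0.81 (SE 0.39, limma adjusted p = 0.900). Array sets held 90.5% of its variance, with means of 10.55 in the low, 12.48 in the middle and 6.02 in the high set. Within them the difference was -2.90, -0.49 and 0.91, and the middle set, with 4 against 3 mice, gave an unadjusted limma p under 0.05 and an adjusted p of 0.896. The value was 0.39 without tg270, -1.57 without wt289 and -0.038 without tg271, and it was also above 0 with array weights (0.19) and when adjusted for the 3'-5' difference (0.20).

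A second bright Scn2b probe set, 1436134_at, spread less. It ran from 9.60 (tg270) to 10.95 (tg276), and its means of 10.57 ± 0.50 and 10.47 ± 0.32 (n = 6 each) differed by 0.10 (SE 0.22). The array sets lay in the same order as on 1430648_at, at 10.27 in the low, 10.80 in the middle and 9.92 in the high set. They held 81.2% of the variance of 1436134_at. The mouse lowest on 1430648_at, wt289, was at 10.25 here, above wt287 and wt290. Leaving out 1 mouse gave 0.020 without tg276 to 0.29 without tg270, and the difference was 0.0084 with the array set as block. The third probe set, 1457144_at, was near the array median and differed by 0.02 (SE 0.17).

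Scn3b, a beta subunit that is not covalently bound to the pore, was bright in 1435767_at on MOE430A. UBB+1 tg mice ran from 10.42 (tg274) to 11.16 (tg270) with a median of 10.59. Wild-type mice were at 10.13 (wt287), 11.15 (wt289), 10.13 (wt290), 10.47 (wt291) and 10.48 (wt321). The high array set was highest in both genotypes, and the groups overlapped. The low set was lowest in wild-type mice, but its UBB+1 tg mouse tg271 (10.43) lay just above tg274 of the middle set. Means of 10.64 ± 0.27 (n = 6) and 10.47 ± 0.42 (n = 5) gave a difference of 0.16 (SE 0.19, exact two-sided permutation p = 0.463). Leaving out 1 mouse gave 0.058 without tg270 to 0.33 without wt289, and adjustment for the 3'-5' difference gave 0.021. The other probe set, 1426328_a_at, was below the array median and differed by -0.08 (SE 0.16).

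Hcn2, the HCN channel that responds strongly to cyclic AMP and is widespread in the brain, was measured by 1421154_at on MOE430A, just below the array median. UBB+1 tg mice ran from 5.95 (tg270, tg276 and tg277) to 6.32 (tg271) with a median of 6.03. Wild-type mice were at 6.57 (wt287), 5.95 (wt289), 6.55 (wt290), 6.19 (wt291) and 6.04 (wt321). The 3 highest mice were the 3 of the low array set, wt287, wt290 and tg271. Means of 6.09 ± 0.16 (n = 6) and 6.26 ± 0.29 (n = 5) differed by -0.18 (SE 0.13, exact two-sided permutation p = 0.227), and by -0.09 (SE 0.08) with the array sets as a block.

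**Figure D2:**
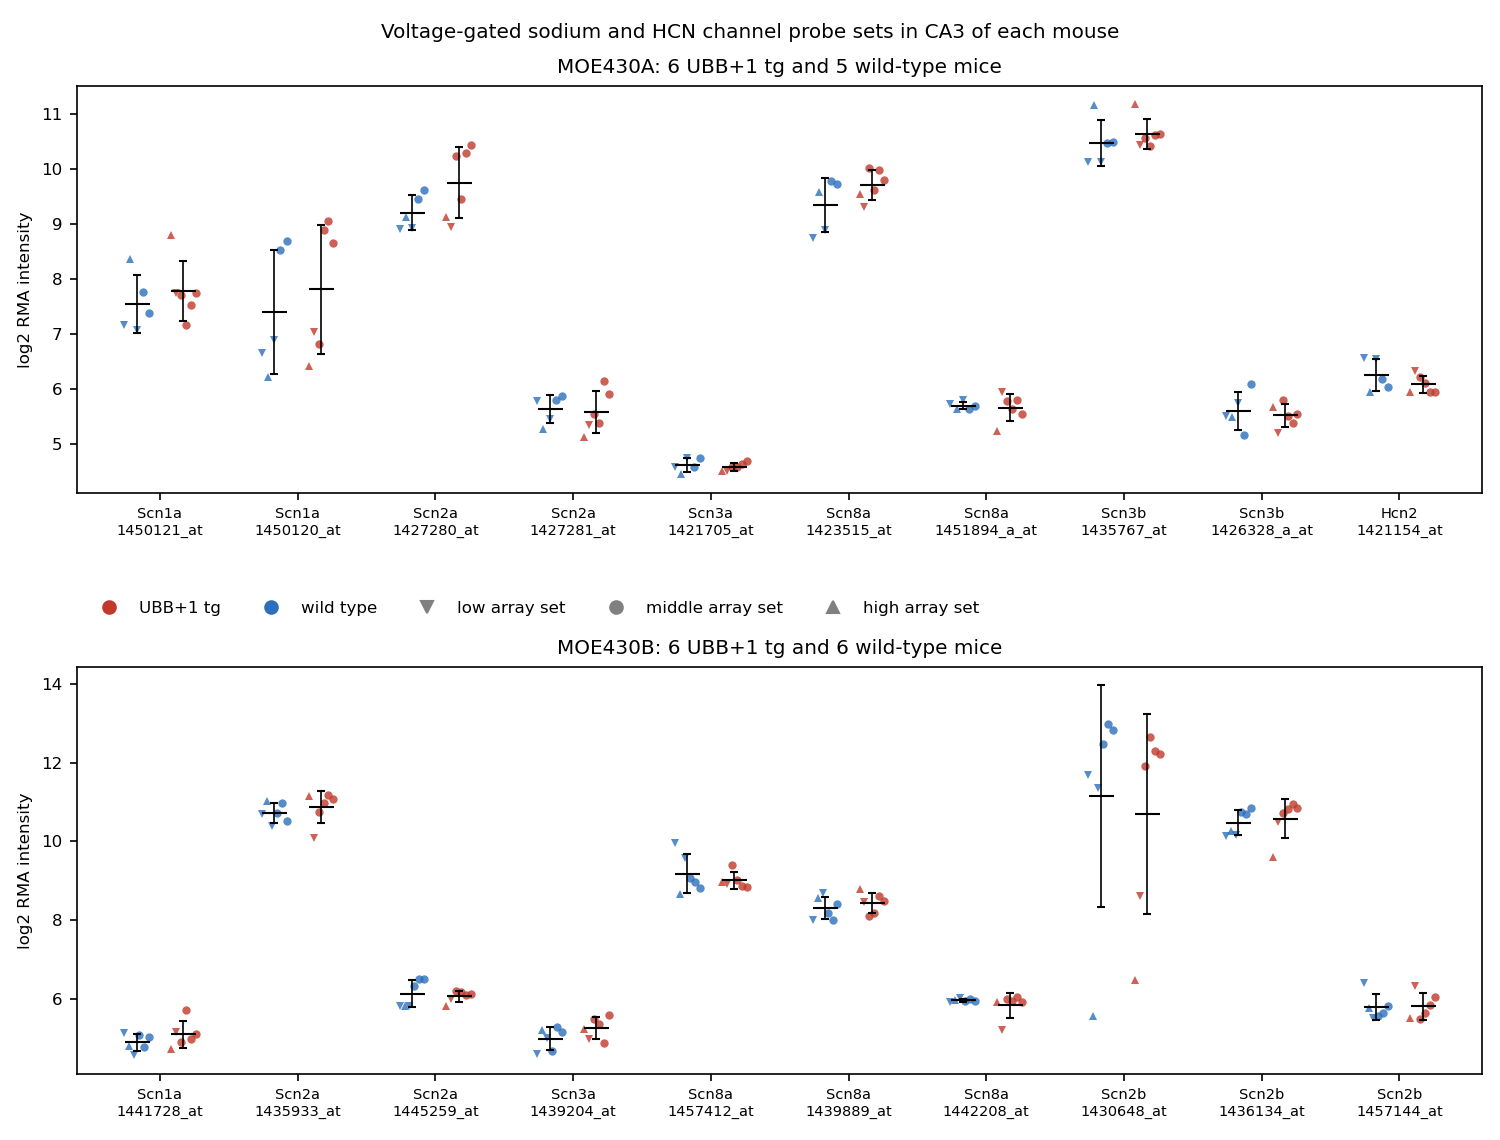
Log2 intensity (y axis) of the 20 probe sets of the 7 genes (x axis) in each mouse, MOE430A above and MOE430B below; colour marks the genotype, shape the array set, and bars the mean and SD. The genotypes overlap in all 20, and for Scn2b 1430648_at the 2 mice of the high array set lie at 6.48 and 5.57, far below the others.

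The values also varied with the array sets, which is described here without a test because the same arrays defined the sets. On MOE430A the sets held 2.62% to 91.7% of the variance of the 10 probe sets with a median of 71.0%, beside a median of 39.6% over all probe sets of the array, which 8 of the 10 exceeded. On MOE430B this was 19.0% to 90.5% with a median of 38.3%, beside 31.5%, which 6 of the 10 exceeded. The direction differed by probe set, also within a gene. Over the low, middle and high sets, Scn1a 1450121_at rose (7.33, 7.54 and 8.59), as did Scn2a 1435933_at (10.39, 10.88 and 11.08). Scn8a 1457412_at fell over them (9.48, 8.99 and 8.82). Scn3b 1435767_at rose over the low, middle and high sets, at 10.23, 10.53 and 11.16, and Hcn2 fell over them, at 6.48, 6.08 and 5.95. Scn1a 1450120_at, Scn2a 1427280_at, Scn8a 1423515_at and both bright Scn2b probe sets were highest in the middle set. The part of RNA length in any of these differences was not tested.

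**Figure D3:**
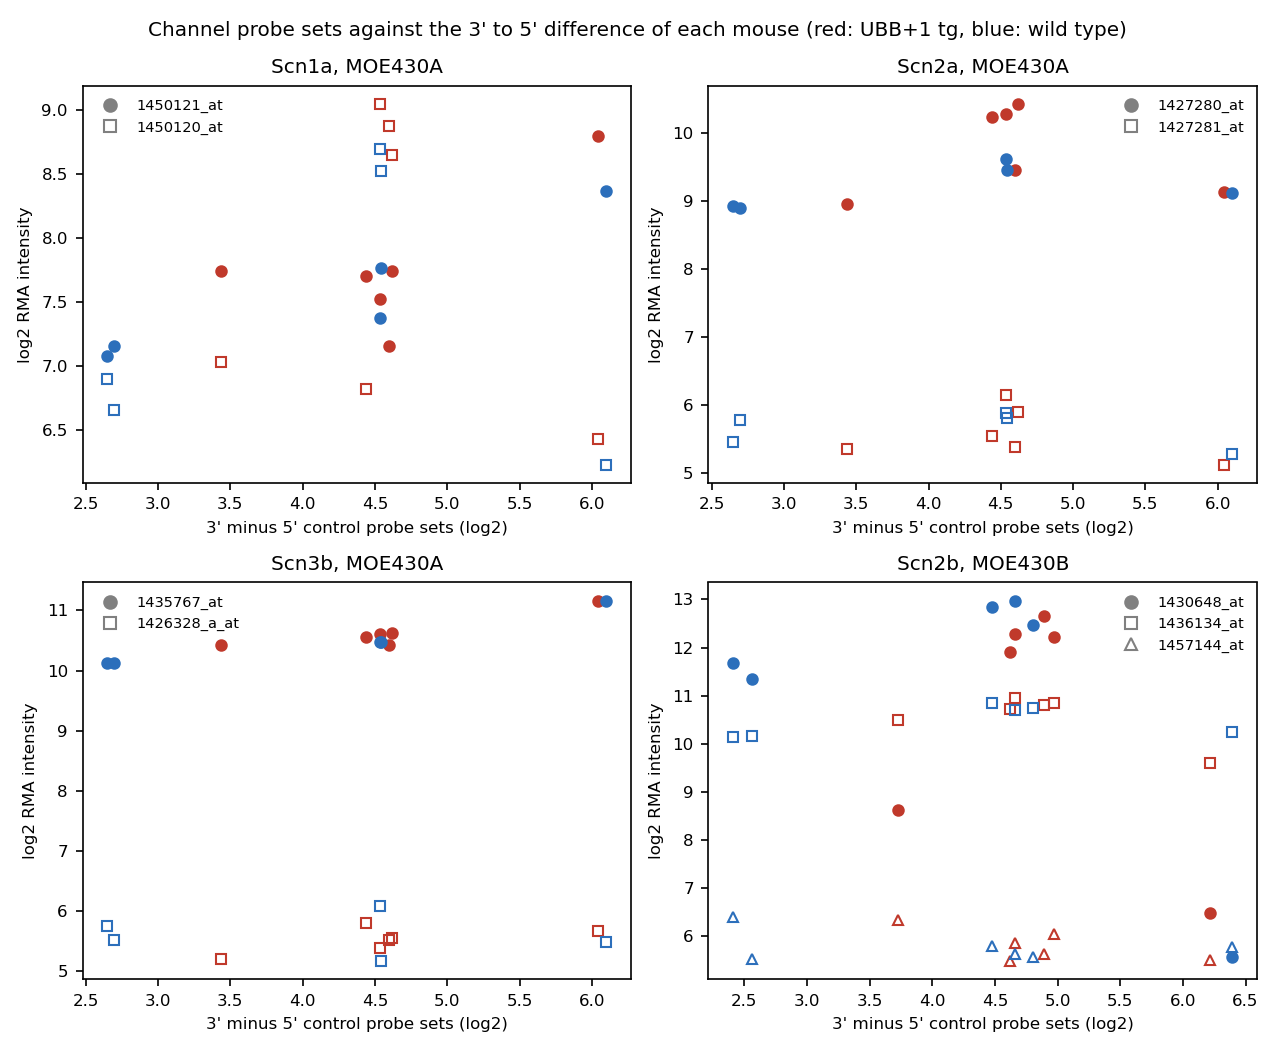
Log2 intensity of the probe sets of Scn1a, Scn2a, Scn3b and Scn2b (y axis) in each mouse against its 3'-5' difference (x axis, log2); colours mark the genotype and shapes the probe set. The low, middle and high array sets lie apart along the x axis, with Scn2b 1430648_at falling to 6.48 and 5.57 in the high set while Scn3b 1435767_at rises to 11.16 and 11.15 there.

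Probe sets of 1 gene were then set against each other, by the difference between its 2 brightest on an array in each mouse. Of 7 such pairs, Scn2a on MOE430A had the lowest p. There 1427280_at minus 1427281_at was 4.16 ± 0.39 (n = 6) in UBB+1 tg and 3.56 ± 0.28 (n = 5) in wild-type mice, so that the genotype difference of the 2 probe sets was 0.60 apart (exact two-sided permutation p = 0.0173, adjusted over the 7 pairs 0.121). The gap itself followed the array sets, with means of 3.39 in the low, 4.13 in the middle and 3.91 in the high set. Within the middle set the genotype differences were 0.66 apart (exact permutation p = 0.133 over 15 splits). The other 6 pairs were apart by -0.55 to 0.41, with adjusted exact p-values of 0.548 to 0.855. The dimmer Scn2a probe set was brighter than 34.2% of its array, and the part of brightness in the gap was not tested.

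On MOE430A, 5 of 5 probe sets above the array median were higher in UBB+1 tg mice and 0 of 5 below it. On MOE430B, 4 of 8 bright and 2 of 2 dim ones were higher. A positive difference was found for 51.7% of all probe sets on MOE430A and 47.6% on MOE430B, and for 53.4% and 46.1% of those above the array median. Of the 5 bright ones on MOE430A, 4 were above 0 with the array set as block and 3 in the middle set.

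Several of these genes are neighbours in the mouse genome. In the RefSeq annotation of GRCm38.p6, Scn3a and Scn2a are adjacent on chromosome 2, and Scn1a follows after Csrnp3, Galnt3 and Ttc21b, with Scn9a and Scn7a next to it. Scn2b and Scn4b are adjacent on chromosome 9, which also holds Scn3b. Differences of the brightest probe sets in the chromosome 2 cluster were 0.23 for Scn1a, 0.15 for Scn2a, 0.27 for Scn3a, 0.06 for Scn9a and -0.34 for Scn7a, none of them past the threshold.

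No gene of the rest of the channel family or of its partners passed the false discovery rate either. In 6 lists of 53 genes, 41 were measured by 109 probe sets, of which 0 passed the false discovery rate of 10% and 1 had an unadjusted p under 0.05, with 60 above and 49 below 0 and a median of 0.02. The shares of all probe sets, given above, were 3.48% and 3.05% under that p and 51.7% and 47.6% above 0. Blocked by array set, 3 of the 109 reached an unadjusted p under 0.05, where 7.19% and 5.06% of all did, and 0 passed the false discovery rate. They were 1451628_a_at of Ank3 (0.35), 1427495_at of Scn7a (-0.18) and 1427019_at of Ptprz1 (-0.52), a receptor-type phosphatase. Of the other pore-forming subunits and HCN channels, 6 of 9 genes were measured by 13 probe sets, 8 above and 5 below 0, with a median of 0.05 and none past either threshold without the block. The lowest p-values among them were those of the leak channel Nalcn (1448083_at, 0.50, SE 0.25) and of Scn7a (1436044_at, -0.34, SE 0.20). Scn4b, the beta subunit beside Scn2b, differed by 0.30 (SE 0.32).

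The 1 probe set with an unadjusted p under 0.05 belonged to Ank3, which encodes ankyrin-G, the scaffold that holds sodium channels at the axon initial segment. Its probe set 1451628_a_at on MOE430A was at 8.28 ± 0.24 (n = 6) and 7.89 ± 0.28 (n = 5), a difference of 0.39 (SE 0.15, limma adjusted p = 0.984). Other Ank3 probe sets did not share this difference, such as 1452124_at at -0.16 and 1425202_a_at at -0.07. Over all 10 genes of the initial segment and channel anchors, 17 of 35 probe sets were above 0, with a median of -0.01. The adhesion molecule Cntn1 (1459197_at) differed by 0.35 (SE 0.16).

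Intracellular regulators of sodium channels were divided, with 15 of 29 probe sets of 10 genes above 0, a median of 0.01 and none with an unadjusted p under 0.05 without the block. The ubiquitin ligases Nedd4l and Nedd4, which act on sodium channels, had the lowest p-values, with 0.34 (1437400_at, SE 0.17) and 0.50 (1450431_a_at, SE 0.30). The latter was 0.23 with the array set as block. Other probe sets of both genes were divided. Without the block, Nedd4 differed by 0.34 in 1421955_a_at and -0.02 in 1451109_a_at, and Nedd4l by 0.26 in 1423269_a_at and -0.09 in 1456044_at. Of HCN auxiliary proteins, 5 of 13 probe sets of 7 genes were above 0 with a median of -0.01. They included Pex5l, which governs the trafficking of HCN channels (1458932_at, -0.17, SE 0.14), and the small GTPase Rit2 (1448125_at, 0.21, SE 0.23). Of the sodium pump and the sodium exchangers, 14 of 18 probe sets of 7 genes were above 0 with a median of 0.08. The exchangers Slc24a2 (1453885_at) and Slc8a1 (1437675_at) differed by 0.15 (SE 0.08) and 0.32 (SE 0.19), both short of an unadjusted p under 0.05.

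For each gene, the genes whose brightness over the mice was most like that of its brightest probe set were found after the mean of each array set had been subtracted (Pearson r, 11 mice on MOE430A and 12 on MOE430B). All probe sets of an array share its hybridisation and its mice, and the values are a description. Scn1a was most like Dpep1 (r = 0.968) and Mapre1 (0.961), Scn8a like Serinc1 (0.979) and B4galt6 (0.960), and Scn3b like Abcc5 (0.981) and Apcs (0.954). Hcn2 was most like Rap1gap (0.948) and Tsc22d4 (0.947). On MOE430B, Scn2a was most like Fam172a (0.972) and Rbm15b (0.947), Scn2b like Ap5z1 (0.962) and Fam189a2 (0.961), and Scn3a like Tex43 (0.890) and Med13 (0.862). The candidates were 10366 to 10368 probe sets of other genes on MOE430A and 8245 to 8248 on MOE430B, all brighter than the array median. Only 2 were kept for each gene, from the same array, and Hcn2 and Scn3a were too dim to be candidates. None of the 7 genes had another of them among those kept, but this outcome was nearly fixed by the search, and nothing is concluded from it.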

How the data were processed

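The authors deposited RMA intensities, which are corrected for background, quantile-normalized over the arrays of a kind and condensed to 1 value per probe set. MOE430A values were deposited as linear intensity in whole numbers and were converted to log2 here; MOE430B values were deposited as log2. The RMA version is not given in the sources used here. The labels and the methods name different RNeasy kits. Of each array 64 control probe sets were left out, as was 1427508_at on MOE430A, which the methods exclude. Differences came from lmFit and eBayes of limma 3.58.1 (R 4.3.3), tested on simulated data, with Benjamini-Hochberg adjustment within an array and a false discovery rate of 10%. The authors' single-probe analysis could not be run on summarised values. The paper states that RMA values and a limma t-test at a false discovery rate of 10% upheld its results. Here limma at that rate passed 0 probe sets on either array, and the reason for this difference was not tested. Single values were compared by exact permutation tests. All 20 probe sets are reported; the brightest of each gene is described by animal, with up to 2 genes of lowest p per list and the 2 most similar genes. Genes and lists were chosen with earlier results of these data known. Alternatives were other normalizations, filters, variance models, covariates, array sets and left-out animals. The number of arrays limits the precision. P-values set a difference against the spread between these mice, which limma moderates with that of all probe sets of the array.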

Additional observations from a re-analysis of the deposited data

Results flagged for a closer look

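In 7 of the 40 groups formed by a probe set and a genotype, 1 mouse lay far from the others of its group by Dixon's criterion, which chance meets in about 1 in 20 groups. In UBB+1 tg mice these were tg270 at 8.80 on Scn1a 1450121_at (the others 7.16 to 7.74), at 9.60 on Scn2b 1436134_at (10.50 to 10.95) and at 11.16 on Scn3b 1435767_at (10.42 to 10.63). The others were tg273 at 9.40 on Scn8a 1457412_at (8.84 to 9.02) and tg271 at 5.20 on Scn8a 1442208_at (5.92 to 6.04). In wild-type mice they were wt289 at 5.57 on Scn2b 1430648_at (11.35 to 12.98) and wt287 at 6.41 on Scn2b 1457144_at (5.52 to 5.80). All of these mice but tg273 belong to the low or high array set.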

How the results depend on the processing

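None of the alternatives brought a probe set of the 20 past the false discovery rate. The count with an unadjusted limma p under 0.05, 0 on each array, became 2 on MOE430A with array weights and 2 on MOE430B in the middle array set alone. It ranged from 0 to 1 over left-out mice on both arrays, with 1 of 10 without tg270 or tg271 on MOE430A, where 3.52% and 6.66% of all probe sets reached it, and 1 of 10 without tg271 or tg276 on MOE430B, where 6.35% and 2.69% did. Of 237 values under the alternatives other than left-out mice, 226 kept their sign. The 11 that turned were, with array weights, 0.085 for Scn2a 1427281_at and 0.19 for Scn2b 1430648_at; with the 3'-5' difference as covariate, 0.015 for Scn8a 1451894_a_at and 0.20 for Scn2b 1430648_at; with the array set as a block, -0.032 for Scn1a 1450120_at; with only animals on both arrays, 0.0088 for Scn2a 1445259_at; and in the middle set alone, -0.26 and -0.040 for Scn1a 1450120_at and 1450121_at, 0.025 for Scn8a 1451894_a_at, 0.090 for 1457412_at and 0.018 for 1442208_at. The gap between the Scn1a probe sets turned from -0.18 to 0.22 in the middle set, a comparison added after seeing the data, as was leaving out each mouse from the gaps. Of 230 values with a mouse left out, 219 kept their sign. The ranges that cross 0 were -0.18 to 0.029 for Scn2a 1427281_at, -0.13 to 0.0088 for Scn2a 1445259_at, -0.098 to 0.044 for Scn8a 1451894_a_at, -1.57 to 0.39 for Scn2b 1430648_at, -0.084 to 0.15 for Scn2b 1457144_at and -0.19 to 0.042 for Scn3b 1426328_a_at. The gaps crossed 0 for Scn2b (-1.62 to 0.10) and Scn1a (-0.66 to 0.32). The cause of these changes was not tested. For 10 of the 20 probe sets no alternative turned the sign. The dim filter and the floor gave no value for Scn3a 1421705_at.

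No paired analysis was possible because the genotypes share no animal numbers or litters in the labels.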
